A study of Rattus norvegicus with 6 samples.

Results

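The translation initiation factor genes were taken as the protein-coding rows of the deposited table whose name begins with Eif and a digit from 1 to 6. This gave 50 genes of 33589 rows, each matched by name alone and without regard to its values. They were compared in mesenchymal stem cells (MSCs), the bone, cartilage and fat forming stromal cells, which came from rat bone marrow and were held in the hydrogel labelled SA. The stiff gel had a stiffness of 18 kPa and the soft gel 2 kPa, with 3 libraries each after 48 h. All cells were grown in low glucose medium with serum and antibiotics and were taken out of the gel before polyA RNA was sequenced. Strain, age, sex and number of animals were not in the sources used here. Nothing says that replicates came from separate cultures, so each p-value reflects the variation among these libraries alone, which could be purely technical.

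Translation initiation brings an initiator methionyl-tRNA and the small ribosomal subunit to the start codon of an mRNA. eIF2 carries the tRNA in its GTP-bound form, eIF2B recharges eIF2 with GTP, and stress kinases that phosphorylate eIF2 block eIF2B and thereby lower most protein synthesis while favouring translation of Atf4 mRNA. eIF3 is the large scaffold on the small subunit, and eIF4F, made of the cap-binding eIF4E, the helicase eIF4A and the scaffold eIF4G, loads mRNA. The 4E-BPs hold eIF4E back until mTOR phosphorylates them, so much of the control of this step acts on the proteins rather than on their mRNA levels.

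Reads recovered from the deposited FPKM (fragments per kilobase of gene, normalised for sequencing depth) totalled 14966354 to 16711527 per library. Between 213 and 13063 reads stood behind each member in each library, and the counting error at the fewest of these reads was below the within-group coefficient of variation for 44 of 50. Of 10 MSC markers, 9 had a mean of at least 1 FPKM and Lepr did not. Of 10 leukocyte markers, 8 had a row, with summed levels of 300.2 to 314.6 FPKM in stiff libraries and 334.7 to 341.6 FPKM in soft libraries. Cd68 and Cd53 fell and Adgre1 rose in stiff gel, while Cd3e was listed at 0 throughout. Endothelial markers summed to at most 0.738 FPKM and erythroid markers to at most 0.243 FPKM in any library. The part of leukocyte RNA in the results on initiation factors was not tested. In bulk RNA, fewer cells of a type and less RNA per cell cannot be told apart. Soft replicate 1 stood apart, at -20.9 on the first principal component against -8.22 and -7.98 for the other soft libraries, and fold changes without it are given beside those members for which leaving it out turned the sign or moved the value by over 1.5 times and which the text describes by their values in each library.

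None of the 50 initiation factor genes passed the test between stiff and soft gel. In a limma fit on log2(FPKM + 1) over the 12713 genes averaging 1 FPKM or more, 182 genes, 1.43% of those tested, had a Benjamini-Hochberg adjusted p under 0.05. All 50 initiation factor genes passed the level filter, and their adjusted p-values ran from 0.178 to 0.994. An unadjusted p under 0.05 was reached by 2 members, or 4.0%, against 15.4% of all genes tested. Limma-voom on the recovered reads called 0 members and 317 of all 12713 genes. It put 2 members under an unadjusted p of 0.05, beside 2052 of all genes. As deposited, the stiff and soft libraries did not overlap for 11 members, 8 higher and 3 lower in stiff gel. This is 22.0% of them beside 22.6% of all tested genes (11.7% higher and 10.9% lower). The share of members parted in this way was thus close to the background. Total FPKM was higher in every stiff library than in every soft one, and overlap was not recounted at equal FPKM sums. Statements below on the overlap of single genes hold for the deposited values.

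**Figure D1:**
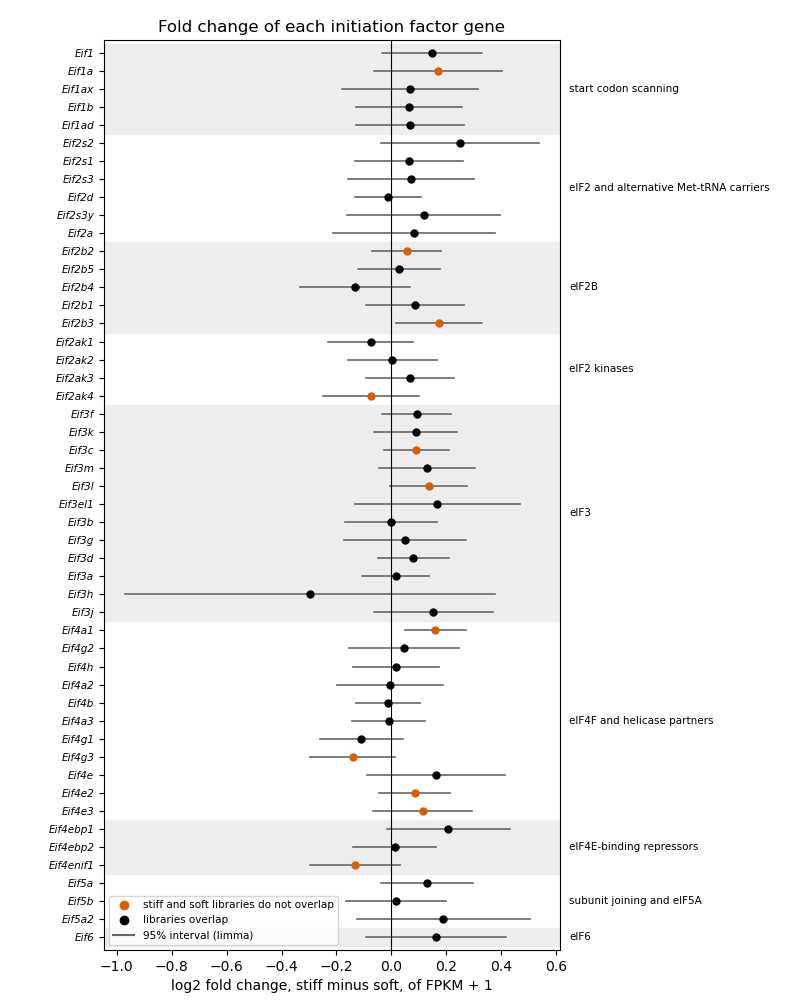
Log2 fold change of FPKM + 1, stiff minus soft, for each of the 50 initiation factor genes, grouped by role, with the 95% interval from limma over 3 stiff and 3 soft libraries. Points lie between -0.30 and 0.25, orange points mark the 11 genes whose libraries do not overlap as deposited, and the intervals of all genes but Eif4a1 and Eif2b3 include 0.

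The differences that could be seen were small. Log2 fold changes, stiff minus soft, ran from -0.30 (Eif3h) to 0.25 (Eif2s2), and the median size without regard to sign was 0.085, beside 0.099 over all genes tested and 0.53 over the 182 called genes. The 95% interval of a single gene, not adjusted for the number of genes, lay within ±0.5 on the log2 scale, a 1.41-fold change, for 47 of 50 members. The intervals of Eif2s2, Eif3h and Eif5a2 reached beyond it. The sign leaned upward: 38 of 50 members, 76.0%, were above 0, against 50.4% of all tested genes, with medians of 0.068 for the members and 0.0013 for all genes. With every library set to the same FPKM sum, 31 of 50 members and 38.6% of all genes were above 0, with medians of 0.023 and -0.042. The members' median lay 0.066 above that of all genes under both scalings. A single factor per library moves all genes nearly alike, so this distance could hardly change and says nothing further of the lean. With quantile normalization, 35 of 50 members were above 0, with medians of 0.045 for the members and -0.0019 for all genes. On the deposited scale without soft replicate 1, the distance between the medians was 0.045, with 31 of 50 members and 49.4% of all genes above 0. The members and all genes were not matched for level.

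The summed level of the 50 genes was 3138.2, 3204.0 and 3276.0 FPKM in the stiff libraries, against 2991.3, 3048.5 and 3033.3 FPKM in the soft libraries. As a share of all FPKM in a library this came to 0.671%, 0.683% and 0.685% in stiff gel and 0.661%, 0.667% and 0.663% in soft gel. Every stiff library lay above every soft one on both scales, though on the share scale the lowest stiff library, at 0.671%, was close to the highest soft library, at 0.667%. Total FPKM moved the same way, at 467372 to 478304 in stiff libraries and 452787 to 457306 in soft libraries.

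The genes spanned a wide range of levels. Averaged over the 6 libraries, Eif5a was highest at 382.0 FPKM and Eif5a2, its close relative, lowest at 4.38 FPKM, with a median of 37.4 FPKM beside 10.1 FPKM for all tested genes. Their lengths, 831 to 8976 bases with a median of 2296, were near the median of 2190 over all tested genes. The within-group coefficient of variation of the members had a median of 6.63%, was under 3% for 5 genes and over 10% for 10. It was not set beside that of all tested genes. Soft replicate 1 held the lowest of the 6 values for 24 of 50 members, or 48.0%, while it did so for 25.9% of all tested genes.

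**Figure D2:**
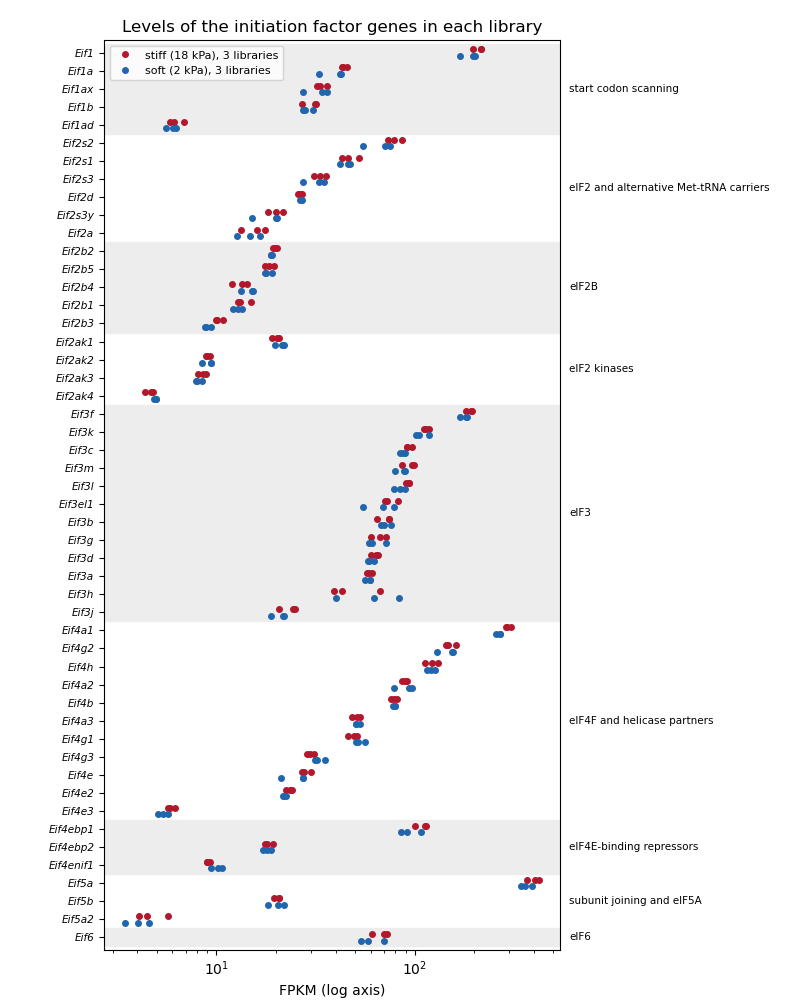
FPKM (log axis) of each initiation factor gene in the 3 stiff (red) and 3 soft (blue) libraries, grouped by role and ordered by level. The spread between genes, from 4.38 to 382.0 FPKM on average, far exceeds the spread between gels, and Eif3h has the widest scatter within each group.

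Promoter sequence is shown for 3 members on which the description of initiation turns: Eif2s2, which had the largest positive fold change, Eif4a1, which had the smallest p, and Eif4e, the cap-binding subunit. Each line gives the 250 bases before the annotated start in RefSeq on build GRCr8, 5′ to 3′ on the strand of the gene, and capitals mark any of 6 short motifs on either strand: TGATGCAA (the composite C/EBP-ATF element used by Atf4), CACGTG (E-box, bound by Myc), CCGGAAG (ETS), GGGCGG (GC box), CCAAT and TATAAA. The windows are chr3:163855571-163855820 on the minus strand for Eif2s2, chr10:54888603-54888852 on the minus strand for Eif4a1 and chr2:229740503-229740752 on the plus strand for Eif4e.
Eif2s2: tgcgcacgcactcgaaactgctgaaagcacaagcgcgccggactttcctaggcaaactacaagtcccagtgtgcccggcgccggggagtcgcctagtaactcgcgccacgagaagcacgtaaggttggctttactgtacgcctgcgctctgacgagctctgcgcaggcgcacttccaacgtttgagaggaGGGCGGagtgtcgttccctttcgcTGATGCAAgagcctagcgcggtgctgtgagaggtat
Eif4a1: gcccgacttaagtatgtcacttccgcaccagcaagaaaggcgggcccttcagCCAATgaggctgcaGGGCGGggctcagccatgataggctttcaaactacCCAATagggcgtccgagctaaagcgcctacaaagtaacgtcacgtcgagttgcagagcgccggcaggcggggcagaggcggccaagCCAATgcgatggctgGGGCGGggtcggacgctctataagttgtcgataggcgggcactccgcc
Eif4e: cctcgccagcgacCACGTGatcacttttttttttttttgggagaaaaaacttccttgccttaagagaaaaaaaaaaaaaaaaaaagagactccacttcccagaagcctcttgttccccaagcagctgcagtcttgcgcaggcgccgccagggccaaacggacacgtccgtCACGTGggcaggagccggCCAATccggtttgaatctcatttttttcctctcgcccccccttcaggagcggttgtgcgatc

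A window was found by symbol for 45 of the 50 genes, some with more than 1 start. A member counted once if any of its windows held the motif, whereas the background counts single windows of all genes, expressed or not. The 2 shares are thus not like for like, and whether they differ from those of other expressed genes was not tested. TGATGCAA stood in 1 of the 45, Eif2s2, 36 to 29 bases before its start, and in 0.693% of all 33469 windows. CACGTG stood in 8, or 17.8%, beside 5.59% of all windows, with 2 copies in Eif4e. The ETS motif stood in 18 (40.0% beside 7.27%) and the GC box in 29 (64.4% beside 30.5%), while CCAAT (14, or 31.1%, beside 34.0%) was near the share of all windows and TATAAA was in 2 (4.44% beside 12.9%). The motifs do not overlap one another in the 3 printed windows. A match describes letters only and says nothing of binding.

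The group of scanning factors, which keep the small subunit open and check the start codon, held 5 genes. Eif1ad was placed among them by its name alone, and a role in scanning is not claimed for it. All 5 had fold changes above 0 (median 0.068) and none was called. Without soft replicate 1, Eif1ax came to -0.047 and the other 4 stayed above 0. Eif1, the main start codon monitor, was at 196.9, 216.7 and 215.1 FPKM in stiff libraries, against 169.5, 200.7 and 197.7 FPKM in soft libraries. One stiff library lay below both soft replicates 2 and 3, so the groups overlapped (log2 fold change 0.15, SE 0.077, limma adjusted p = 0.415), and the value was 0.072 without soft replicate 1. Its relative Eif1b was present at a fraction of that level, the ratio of Eif1 to Eif1b being 6.99 ± 0.292 in stiff and 6.61 ± 0.590 in soft gel (SD, n = 3 each). Eif1a, at 43.9 ± 1.26 FPKM in stiff and 39.2 ± 5.40 FPKM in soft gel, did not overlap between groups (log2 fold change 0.17, limma adjusted p = 0.471; 0.053 without soft replicate 1). Eif1a and Eif1ax encode near-identical proteins, so how reads were split between their rows is uncertain. Eif1ad, which carries an eIF1A-like domain, had the lowest level of the 5, at 6.11 FPKM.

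eIF2 and the other factors that bring methionyl-tRNA comprised 6 genes, 5 of them above 0 (median 0.077), of which Eif2s3, Eif2s3y and Eif2a came to -0.028, -0.011 and -0.014 without soft replicate 1. Eif2s2, the beta subunit of eIF2, was at 72.9, 86.8 and 78.9 FPKM in stiff libraries, against 54.9, 75.3 and 71.1 FPKM in soft libraries. The lowest value was soft replicate 1, and stiff replicate 1 lay below soft replicate 2. Its log2 fold change of 0.25 (SE 0.12, 95% interval -0.037 to 0.54, limma adjusted p = 0.386) was the largest of the 50 and came to 0.12 without soft replicate 1 (adjusted p = 0.541). The alpha subunit gene Eif2s1, whose product the stress kinases phosphorylate, was at 47.2 ± 4.69 FPKM in stiff and 45.1 ± 2.82 FPKM in soft gel (SD, n = 3 each; log2 fold change 0.062, which came to 0.012 without soft replicate 1 and -0.013 without stiff replicate 2). The ratio of Eif2s2 to Eif2s1 was 1.69, 1.66 and 1.71 in stiff libraries and 1.31, 1.59 and 1.55 in soft libraries, and the 2 groups did not overlap. It was among several ratios looked at and was not tested, and the groups overlapped for each gene alone. The gamma subunit was read from an X-linked row, Eif2s3, and a Y-linked row, Eif2s3y, in every library, with a ratio of 1.68 ± 0.125 in stiff and 1.74 ± 0.0852 in soft gel. These 2 rows can share reads. Eif2d, which can deliver tRNA without eIF2, was among the steadiest members, at 26.5 ± 0.680 FPKM in stiff and 26.7 ± 0.307 FPKM in soft gel.

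eIF2B, the 5-subunit exchange factor of eIF2, was expressed within a 2.00-fold range of levels, from 9.65 FPKM for Eif2b3 to 19.3 FPKM for Eif2b2. Eif2b3, the gamma subunit and part of the catalytic subcomplex, was at 10.1, 10.8 and 10.0 FPKM in stiff libraries, against 8.86, 8.74 and 9.43 FPKM in soft libraries. Every stiff value exceeded every soft one (log2 fold change 0.17, SE 0.066, unadjusted p = 0.0333, limma adjusted p = 0.283). Eif2b2, the beta subunit, was also parted as deposited, at 19.7, 19.3 and 20.2 FPKM in stiff and 18.9, 18.8 and 19.2 FPKM in soft gel, by a log2 fold change of 0.056 (limma adjusted p = 0.664). This gap was narrow, and the log2 fold change of Eif2b2 came to 0.0094 at equal FPKM sums. Eif2b4, the delta subunit, leaned the other way, with 13.5, 12.0 and 14.2 FPKM in stiff libraries and 15.3, 13.3 and 15.1 FPKM in soft libraries. Its groups overlapped at stiff replicates 1 and 3 (log2 fold change -0.13, limma adjusted p = 0.504; -0.071 without stiff replicate 2). The complex summed to 75.4 ± 3.11 FPKM in stiff and 73.5 ± 1.92 FPKM in soft gel (SD, n = 3 each), a difference about as large as the spread between replicates, and the groups overlapped.

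The kinases that phosphorylate eIF2 were all expressed, and none was called. Eif2ak1 (HRI, known for its response to haem shortage and mitochondrial stress) was highest, at 20.7, 19.0 and 20.1 FPKM in stiff libraries, against 19.7, 22.0 and 21.5 FPKM in soft libraries (log2 fold change -0.074, limma adjusted p = 0.644). Leaving out single libraries moved its log2 fold change to between -0.12 (without soft replicate 1) and -0.041 (without stiff replicate 2), and it was -0.045 without soft replicate 2. Eif2ak2 (PKR, which binds double-stranded RNA) was at 8.96, 8.91 and 9.33 FPKM in stiff and 8.42, 9.35 and 9.38 FPKM in soft gel, a log2 fold change of 0.0037 whose sign turned with the scaling (-0.041 at equal FPKM sums; limma adjusted p = 0.989 as deposited) and without soft replicate 1 (-0.043). Eif2ak3 (PERK, the endoplasmic reticulum stress kinase) was at 8.57, 8.91 and 8.09 FPKM in stiff and 8.44, 7.88 and 7.94 FPKM in soft gel (0.067, limma adjusted p = 0.696; 0.038 without stiff replicate 2). The groups overlapped for Eif2ak2 and Eif2ak3. Eif2ak4, which encodes GCN2, the kinase that senses uncharged tRNA, was at 4.82, 4.67 and 4.39 FPKM in stiff and 4.94, 4.87 and 4.96 FPKM in soft gel, with no overlap (-0.075, limma adjusted p = 0.683; -0.044 without stiff replicate 3). Summed over the 4 kinases, the level was 42.2 ± 0.795 FPKM in stiff and 43.1 ± 1.40 FPKM in soft gel (SD, n = 3 each).

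eIF3 had 12 rows, of which 10 lay above 0 (median 0.089) and none was called. Eif3f was the most abundant subunit gene, at 181.0, 194.2 and 193.2 FPKM in stiff libraries, against 169.0, 181.7 and 182.5 FPKM in soft libraries (log2 fold change 0.092, limma adjusted p = 0.474; 0.056 without soft replicate 1). Eif3j, the loosely bound subunit, was the least abundant, at 20.7, 24.9 and 24.5 FPKM in stiff and 18.9, 22.0 and 21.8 FPKM in soft gel (0.15, limma adjusted p = 0.485; 0.085 without soft replicate 1 and 0.23 without stiff replicate 1). In both genes, stiff replicate 1 lay below soft replicates 2 and 3, so the groups overlapped. Eif3l, a peripheral subunit, was at 90.0, 93.7 and 94.1 FPKM in stiff and 79.0, 89.6 and 84.2 FPKM in soft gel without overlap (0.14, SE 0.059, limma adjusted p = 0.337; 0.090 without soft replicate 1). Eif3c, a core scaffold subunit, was parted too, at 92.9 ± 3.05 FPKM in stiff and 87.2 ± 2.54 FPKM in soft gel. The other core genes Eif3a (59.0 ± 1.82 FPKM in stiff, 58.4 ± 1.85 FPKM in soft gel) and Eif3b (70.9 ± 5.22 FPKM in stiff, 71.0 ± 4.05 FPKM in soft gel) had log2 fold changes of 0.015 and -0.0019. Levels of the 12 spanned 8.29-fold.

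Eif3h differed from the rest in its scatter, at 39.0, 67.0 and 42.8 FPKM in stiff libraries, against 83.8, 62.2 and 40.2 FPKM in soft libraries. Values varied by more than the difference between gels in both groups, and the within-group coefficient of variation, 33.0%, was the highest of the 50. Its log2 fold change of -0.30 came to -0.052 without soft replicate 1, -0.15 without stiff replicate 1, -0.53 without stiff replicate 2 and -0.57 without soft replicate 3. The deposited table has a further row described as eIF3 subunit H, LOC108348062, at 2.79 to 5.05 FPKM in stiff and 2.55 to 3.17 FPKM in soft libraries. Adding it to Eif3h left 44.0, 70.2 and 45.6 FPKM in stiff and 86.4, 65.3 and 42.7 FPKM in soft gel, so the scatter was about as large with both rows added. The row named Eif3el1, a symbol that RefSeq lists as a synonym of Eif3e, was at 71.2, 82.4 and 72.6 FPKM in stiff and 54.9, 78.5 and 69.6 FPKM in soft gel (0.17). Without soft replicate 1 its log2 fold change was 0.026, without soft replicate 2 it was 0.28 and without stiff replicate 2 it was 0.10. A pair of rows described as like subunit E or its older name, LOC100365062 and LOC100909481, held 2.23 to 4.39 FPKM, and genes with such copies are uncertain.

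**Figure D3:**
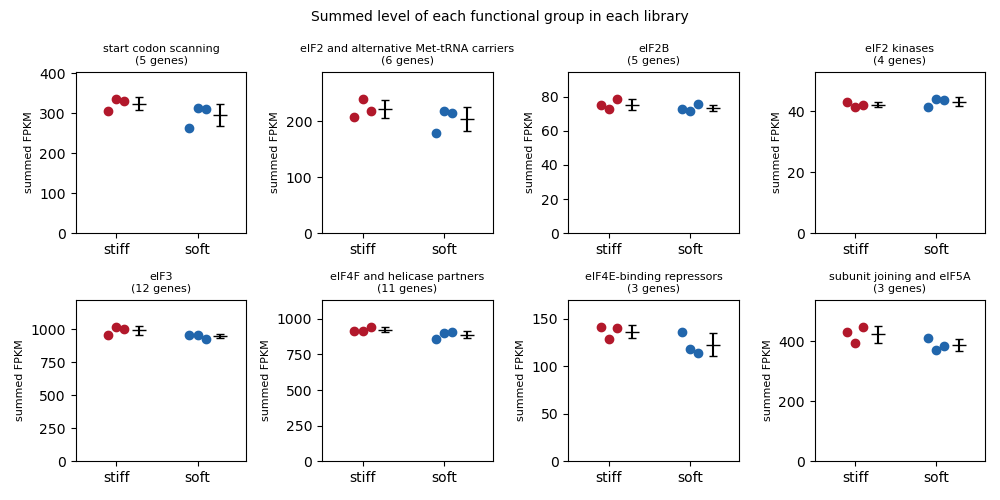
Summed FPKM of the genes of each functional group in the 3 stiff (red) and 3 soft (blue) libraries, with axes from 0; black marks give the mean and SD, and eIF6, a single gene, is left out. The eIF2 kinases sum to 42.2 in stiff and 43.1 in soft gel, and eIF4F and its partners to 923.0 and 889.5.

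Among the 11 genes of eIF4F and its helicase partners, Eif4a1, the main ATP-dependent helicase, had the smallest p of all 50. It was at 291.5, 290.2 and 304.8 FPKM in stiff libraries, against 255.7, 267.8 and 269.6 FPKM in soft libraries, with no overlap. Its mean was 295.5 ± 8.09 FPKM in stiff and 264.3 ± 7.58 FPKM in soft gel (SD, n = 3 each), a ratio of 1.12 and a log2 fold change of 0.16 (SE 0.047, 95% interval 0.050 to 0.27, unadjusted p = 0.0105, limma adjusted p = 0.178). Over all alternatives tried, its log2 fold change ran from 0.10 to 0.17 and its adjusted p from 0.150 to 0.426. Eif4a1 (ENSRNOG00000030628) lies on chromosome 10 from 56271257 to 56276764 on the minus strand, as the table gives it without a named build, and 3 snoRNA rows lie within it. The pseudogene LOC688672, described as similar to eIF4A isoform 1, could share its reads; it was at 4.86, 4.89 and 5.56 FPKM in stiff and 2.99, 3.62 and 4.35 FPKM in soft gel, also without overlap.

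Its relative Eif4a2 was at 88.7 ± 2.63 FPKM in stiff and 89.4 ± 9.67 FPKM in soft gel (log2 fold change -0.0049, limma adjusted p = 0.988; -0.096 without soft replicate 1 and 0.053 without soft replicate 2). The ratio of Eif4a1 to Eif4a2 was 3.39, 3.18 and 3.43 in stiff libraries and 3.26, 2.78 and 2.89 in soft libraries, with soft replicate 1 above stiff replicate 2. Eif4a3, the exon junction helicase of the family, was at 50.9 ± 2.43 FPKM in stiff and 51.2 ± 1.52 FPKM in soft gel. The helicase cofactors Eif4b and Eif4h had log2 fold changes of -0.012 and 0.018.

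Of the 3 scaffold genes, Eif4g3 and Eif4g1 had values below 0 and Eif4g2 above 0, and none passed the test. Eif4g3 was at 31.1, 28.5 and 29.8 FPKM in stiff libraries, against 35.3, 32.3 and 31.3 FPKM in soft libraries. The highest stiff value was just below the lowest soft value (log2 fold change -0.14, SE 0.066, limma adjusted p = 0.370), and the change was -0.091 without soft replicate 1. Eif4g1, the main scaffold, was at 50.9, 46.0 and 49.7 FPKM in stiff and 56.0, 51.8 and 50.5 FPKM in soft gel with overlap (-0.11, limma adjusted p = 0.473; -0.066 without soft replicate 1 and -0.067 without stiff replicate 2). With the length trend removed, Eif4g3 came to -0.10 and Eif4g1 to -0.079. Eif4g2, which lacks the eIF4E-binding part and serves cap-independent initiation, was at 151.1 ± 9.60 FPKM in stiff and 146.6 ± 14.7 FPKM in soft gel (0.046, but -0.039 without soft replicate 1 and -0.0045 without stiff replicate 2), and thus well above both of the other scaffold genes. Eif4e, the cap-binding subunit, was at 26.9, 30.1 and 27.7 FPKM in stiff and 21.1, 27.3 and 27.4 FPKM in soft gel, and only soft replicate 1 lay clearly below the rest (0.16, limma adjusted p = 0.518; 0.043 without it). Eif4e2, a cap-binding relative known as a repressor, was parted at 23.3 ± 0.858 FPKM in stiff and 21.9 ± 0.340 FPKM in soft gel (0.084).

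The repressors that bind eIF4E went different ways. Eif4ebp1, which encodes 4E-BP1, was at 114.6, 100.2 and 113.1 FPKM in stiff libraries, against 107.9, 90.9 and 85.8 FPKM in soft libraries. Soft replicate 1 lay above stiff replicate 2, so the groups overlapped (log2 fold change 0.21, SE 0.095, 95% interval -0.017 to 0.43, limma adjusted p = 0.361). Without soft replicate 1 the log2 fold change was 0.30 (adjusted p = 0.133), the lowest adjusted p it had under any alternative. Eif4ebp2 was at 18.1, 19.2 and 17.5 FPKM in stiff and 18.1, 17.3 and 18.9 FPKM in soft gel, a log2 fold change of 0.013 whose sign turned with the scaling (-0.034 at equal FPKM sums; limma adjusted p = 0.954 as deposited). Eif4enif1, which carries eIF4E into the nucleus and to decay bodies, was at 8.98, 8.99 and 9.31 FPKM in stiff and 10.6, 10.2 and 9.36 FPKM in soft gel, all stiff values lower by a narrow margin (-0.13, limma adjusted p = 0.423). The ratio of Eif4ebp1 to Eif4e, both per length, was 4.26, 3.33 and 4.09 in stiff libraries and 5.11, 3.33 and 3.13 in soft libraries, so the soft range enclosed the stiff one.

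At subunit joining and after it, Eif5a, the hypusine-carrying factor that helps ribosomes past stalling sequences, was the most abundant member, at 405.7, 367.3 and 424.9 FPKM in stiff libraries, against 389.1, 345.5 and 359.8 FPKM in soft libraries. The groups overlapped (log2 fold change 0.13, SE 0.071, limma adjusted p = 0.442; 0.083 without stiff replicate 3). Its tissue-restricted relative Eif5a2 was at 4.05, 5.68 and 4.48 FPKM in stiff and 3.45, 4.02 and 4.58 FPKM in soft gel (0.19, 95% interval -0.13 to 0.50; 0.11 without soft replicate 1 and 0.074 without stiff replicate 2). Eif5b, the GTPase that joins the ribosomal subunits, was at 20.4 ± 0.642 FPKM in stiff and 20.2 ± 1.86 FPKM in soft gel. Eif6, which keeps the large subunit from joining too early, was at 70.2, 60.6 and 72.5 FPKM in stiff and 69.8, 53.8 and 58.1 FPKM in soft gel (0.16, limma adjusted p = 0.525; 0.27 without soft replicate 1 and 0.084 without soft replicate 2), with soft replicate 1 above stiff replicate 2.

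Other genes of the translation pathway were described from 4 lists. These lists were chosen with earlier results of these data known, so their counts beside all genes are description only. The lists of mTOR signalling and of the ATF4 response share Sesn2. Of 12 measured elongation and termination genes and 14 initiation partners, 0 were called in either direction (3 and 2 had an unadjusted p under 0.05), with median log2 fold changes of 0.095 and 0.079 beside 0.0013 over all genes. Among them Eef1b2, an exchange factor of elongation, was at 176.4, 193.1 and 191.4 FPKM in stiff and 148.0, 165.5 and 165.8 FPKM in soft gel (0.23, limma adjusted p = 0.171). Of 15 genes of mTOR and MNK signalling 0 were called (1 had an unadjusted p under 0.05) and 5 were above 0 (median -0.070). Of 13 genes of the eIF2 phosphatase and ATF4 response, 5 rose and 0 fell (median 0.19), beside 1.01% of all tested genes higher and 0.425% lower.

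The 5 were Trib3 (log2 fold change 0.95), a pseudokinase induced by ATF4, Chac1 (0.82), a glutathione-degrading enzyme, the serine synthesis genes Psat1 (0.62) and Phgdh (0.54), and Atf5 (0.31). Other genes of the list did not follow them past the test. Asns (0.31, limma adjusted p = 0.0856) and Sesn2 (0.11) were above 0, while Ddit3 (-0.0070), Atf3 (-0.10) and Slc7a11 (-0.063) were below it. Atf4 itself, whose translation the eIF2 kinases favour, was at 89.5, 98.5 and 100.3 FPKM in stiff libraries, against 80.5, 90.4 and 81.3 FPKM in soft libraries (0.19, limma adjusted p = 0.254). The phosphatase subunit genes, which reverse eIF2 phosphorylation, were not called: Ppp1r15a had a log2 fold change of -0.098 and Ppp1r15b of 0.057. Phosphorylation of eIF2 and of the 4E-BPs was not measured.

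**Figure D4:**
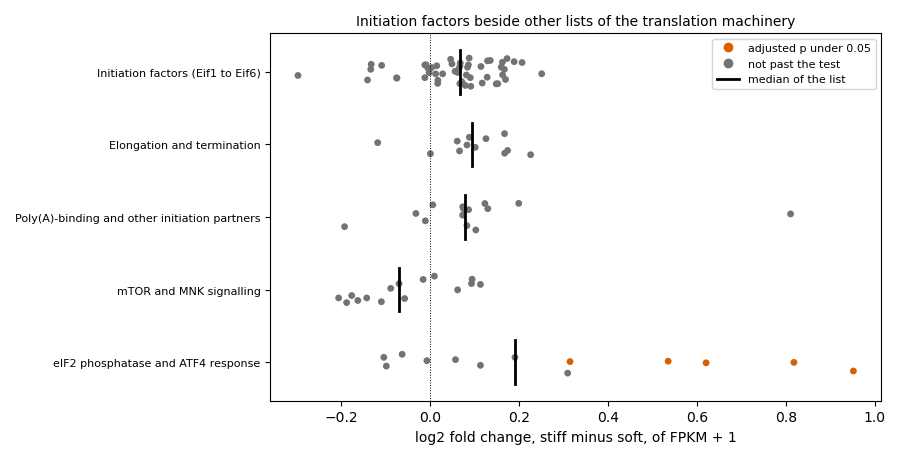
Log2 fold change of FPKM + 1, stiff minus soft, of the 50 initiation factor genes and of 4 other lists, 1 point per gene, with black bars at the medians and orange points for genes past an adjusted p of 0.05. The 5 orange points all lie in the eIF2 phosphatase and ATF4 list, while the initiation factors centre on 0.068 with none past the test.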

How the data were processed

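The authors deposited FPKM per gene and library. Per the submitters' processing notes, Bowtie 0.12.9, Cufflinks 2.1.1 and HTSeq were used, with the mouse builds mm10 and GRCm38 named, whereas the identifiers in the table are rat Ensembl ones with no build named; how strand and multiply mapped reads were handled is not given. Quadruplicates are mentioned in the design text, and 3 stiff and 3 soft libraries were analysed here. The product of FPKM and gene length was a whole multiple of a library's own smallest product for 100% of values, within 0.001, and such recovered reads served for depth and an added alternative; 3 reads on a gene of 1 kb came to 0.179 to 0.201 FPKM. FPKM are not counts, so log2(FPKM + 1) was tested in limma 3.58.1 (R 4.3.3). Gel stiffness was the sole term, the variance followed an intensity trend and tests were two-sided, over genes averaging 1 FPKM or more and adjusted by Benjamini-Hochberg at 0.05. This scale understates changes of low genes. No rank test was used, since the smallest exact two-sided p that 3 against 3 allows is 0.1. No pair of libraries of a group agreed within sampling noise (chi-square per degree of freedom of at least 3.71). The test was checked on simulated data with independent noise for each gene and library. Those data held no outlying library, so the check does not cover a library that stands apart, as soft replicate 1 did. Promoter windows came from RefSeq on GRCr8. Of the 50 genes, 10 overlap another row with a mean of at least 1 FPKM and are uncertain for that reason, among them Eif5a, Eif4a1, Eif4a2, Eif3a, Eif4g1, Eif2b1 and Eif2a. The last, with a mean of 15.2 FPKM, overlaps Serp1 on the opposite strand, which had a mean of 65.4 FPKM.

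The members, gene lists, motifs and tests were chosen with earlier results of these data known. Values in every library are given for the 5 members of smallest p in each direction, the most abundant of each role, the 4E-BP and eIF2 kinase genes, and the most and least abundant subunits of eIF2B and eIF3; other members are named for their role or scatter after their values were seen. Alternatives changed the pseudocount, filter, scaling, variance model and length trend, added a replicate block and left out each library.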

Additional observations from a re-analysis of the deposited data

How the results depend on the processing

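No initiation factor gene was called under any of the 17 alternatives. Over all genes, the 182 calls (128 higher, 54 lower) became 92 with no level filter, 112 without the variance trend, 317 with voom on recovered reads, an alternative chosen after seeing the data, and 26 to 159 when each library in turn was left out; the cause was not tested. At equal FPKM sums the split was 88 higher and 68 lower. The median over the 50 genes was 0.023 at equal FPKM sums, and 0.043 to 0.092 when each library was left out. Of 339 values of the 20 genes chosen by rule, 330 kept their sign and their side of the threshold. The other 9 changed sign. Eif4ebp2 came to -0.034 at equal FPKM sums, -0.0095 with the length trend removed, -0.0027 with voom, and, with single libraries left out, between -0.023 without stiff replicate 2 and 0.045 without soft replicate 3, being -0.018 without soft replicate 2. Eif2ak2 came to -0.041 at equal FPKM sums, -0.011 with voom, and, with single libraries left out, between -0.043 without soft replicate 1 and 0.028 without soft replicate 3, being -0.015 without stiff replicate 3. The replicate block gave 105 calls over all genes and 0 initiation factors. With it, 9 of the 50 initiation factors had an unadjusted p under 0.05, beside 2303 of all 12713 genes tested, which is about the same share. Deviations of same-numbered libraries correlated at 0.0552, 0.116 and -0.0785 across genes. Stiff replicates 1 and 2 correlated best with the soft library of the same number, and stiff replicate 3 with soft replicate 1 (0.137). These values do not settle whether the numbers pair the libraries, and the main test left them unpaired. The planned edgeR test was not run, since the deposited values are FPKM.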

Other observations

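A few rows outside the naming rule also concern initiation, and their values were looked at after the rest. The row NEWGENE_619861, described in the deposited table as eukaryotic translation initiation factor 5, the GTPase activator of eIF2, was at 51.7, 59.3 and 56.0 FPKM in stiff libraries, against 45.9, 58.4 and 56.0 FPKM in soft libraries (limma adjusted p = 0.814). Ctif, which acts in cap-binding complex dependent initiation, was at 11.0, 10.5 and 10.5 FPKM in stiff and 11.0, 10.8 and 10.4 FPKM in soft gel. The mitochondrial initiation factor genes were low: Mtif3 was at 7.06, 5.75 and 7.28 FPKM in stiff and 6.99, 5.01 and 5.99 FPKM in soft gel, and Mtif2 at 3.12, 3.98 and 4.32 FPKM in stiff and 3.40, 4.39 and 3.79 FPKM in soft gel. In none of the 4 did the groups part.

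LOC100912571, a row described as like eukaryotic translation initiation factor 4 gamma 1, was at 19.6, 1.44 and 1.84 FPKM in stiff libraries, against 12.0, 1.88 and 2.12 FPKM in soft libraries. The library numbered 1 in each group was thus several times above the other libraries. Eif4g1 itself was also highest in the library numbered 1 of each group, but by far less. It was at 50.9, 46.0 and 49.7 FPKM in stiff and 56.0, 51.8 and 50.5 FPKM in soft gel. The difference of LOC100912571 between gels was far smaller than the spread among its libraries (limma adjusted p = 0.978).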
